A study of Danio rerio with 4 samples.

Results

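The dividing cells of the venous and lymphatic endothelium were examined in trunk and tail tissue of zebrafish at 26 hpf (hours after fertilization), by droplet single-cell RNA sequencing. The cells were chosen by their own transcript counts, as endothelial cells (EC) with venous and lymphatic scavenger markers and with several transcripts of genes that are on during late S phase, G2 and mitosis. This gave 1072 cells among 43568 barcodes. They numbered 154 in the miR-128 mutant library, 232 in the csnk1a1 g3UTR library, 369 in the jag1b g3UTR library and 317 in the WT library. Non-cycling venous and lymphatic EC, which met every other condition, numbered 3581, 2807, 4012 and 4202 in the same 4 libraries, 14602 in all.

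The first veins of the zebrafish trunk, the posterior cardinal vein and the caudal vein plexus, hold EC that take up waste from the blood through the scavenger receptors Stab1, Stab2 and Mrc1a. Lymphatic vessels arise from the posterior cardinal vein, where Vegfc, acting through its receptor Flt4, drives divisions of venous cells and turns on the transcription factor Prox1 in the daughters that will leave the vein. Bmp signals drive the outgrowth of the caudal vein plexus. In a dividing cell, genes for DNA replication peak in S phase, and genes for the spindle, the kinetochore and the B-type cyclins peak in G2 and mitosis.

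The study asked how the microRNA miR-128 acts, through Wnt and Notch signalling, on the endothelial-to-haematopoietic transition, by which EC of the aorta make blood stem cells. All 4 libraries were made from EC sorted by GFP from pooled Tg(kdrl:GFP) zn1 embryos, in which the promoter of the EC gene kdrl drives the reporter. The dissected tissue included the aorta-gonad-mesonephros region. The study names this tissue tail in its methods and trunk in its reporting summary. The miR-128 mutant embryos lacked miR-128-1 as well as miR-128-2, which lie in introns of r3hdm1 and arpp21. The csnk1a1 g3UTR and jag1b g3UTR embryos were WT embryos injected at the 1-cell stage with Cas9 mRNA and a guide RNA against the miR-128 site in the 3′UTR of csnk1a1, a kinase that restrains Wnt signalling, or of jag1b, a Notch ligand, so that cells of an embryo may differ in their edits. WT embryos carried the reporter alone.

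Each group was 1 library, so no difference between groups has a replicate check, no test of a group difference was possible, and all intervals given are exact 95% intervals that cover counting error only. Total counts of unique molecular identifiers (UMIs, 1 per captured transcript) were 99846696 in the miR-128 mutant, 80140720 in the csnk1a1 g3UTR, 69980329 in the jag1b g3UTR and 144258953 in the WT library. The file headers give Cell Ranger 6.0.1 for both g3UTR libraries and 5.0.0 for the miR-128 mutant and WT libraries, so that differences between these pairs cannot be told apart from the version used. Between 26 and 55 cell barcodes were shared by any pair of libraries. The cycling cells were deeper than the non-cycling ones, with medians of 10771, 8987.5, 7058 and 11029 UMIs per cell in the miR-128 mutant, csnk1a1 g3UTR, jag1b g3UTR and WT libraries, against 8875, 6855, 5183 and 9799.5 UMIs. None had over 20% mitochondrial UMIs.

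The rule kept cells with at least 200 genes and at most 35000 UMIs, at least 1 UMI of cdh5, the adhesion protein of EC junctions, at least 3 of the 5 markers stab1, stab2, lyve1b, mrc1a and dab2, and at most 2 of the 5 arterial markers efnb2a, cldn5b, cxcr4a, tbx20 and gja5b. It excluded tip cells by esm1, apln and hlx1, blood progenitors by myb and macrophage-like cells by mfap4. Cells with 3 or more UMIs of mrc1b were left out too, and these can be EC. The shares below therefore do not cover EC high in mrc1b. Cells with at least 3 UMIs in total of top2a (the topoisomerase that untangles chromosomes), cenpf (a kinetochore protein), aspm (a spindle pole protein) and ube2c (the ubiquitin-conjugating enzyme of anaphase) were called cycling. The values of these genes therefore chose the cells and are given as a description. Top2a stood at 338, 332, 421 and 279 CPM (UMIs of a gene per 1000000 UMIs of the class) in cycling cells of the miR-128 mutant, csnk1a1 g3UTR, jag1b g3UTR and WT libraries, against 2.03, 4.47, 6.73 and 2.35 CPM in non-cycling cells. Just inside the threshold, 21, 38, 57 and 42 cells had 3 UMIs of the 4 genes, and just outside it 39, 51, 104 and 89 cells had 2 UMIs.

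The venous and lymphatic markers of the rule are given as a description, and genes outside it bear on the identity only in part. The scavenger receptor stab2 was at 1269, 1363, 2090 and 1532 CPM in cycling cells of the miR-128 mutant, csnk1a1 g3UTR, jag1b g3UTR and WT libraries, against 1848, 2046, 2859 and 2076 CPM in non-cycling cells. Flt4, the Vegfc receptor that the rule did not use, was at 398, 353, 417 and 443 CPM in cycling cells. Prox1a, which defines lymphatic fate, was low at 12.6, 7.91, 15.6 and 9.16 CPM, while mafba, another gene of the lymphatic list, was at 332, 345, 365 and 327 CPM. The cells were thus venous and scavenger-like by their markers, with prox1a low and other lymphatic genes present.

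**Figure D1:**
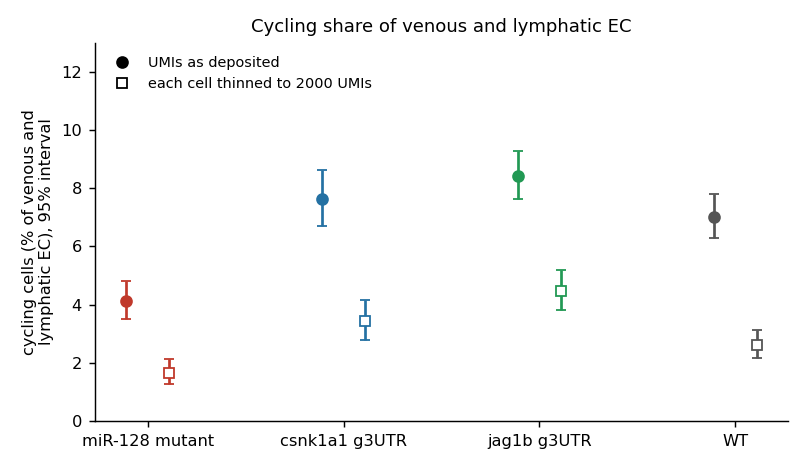
Share of venous and lymphatic EC called cycling (y axis, percent of cells) in the 4 libraries (x axis), with counts as deposited and with each cell thinned to 2000 UMIs. Points are shares and bars exact 95% binomial intervals. The miR-128 mutant library is lowest on both scales, at 4.12% as deposited and 1.66% thinned, against 7.01% and 2.62% in WT.

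The share of venous and lymphatic EC that was cycling was lowest in the miR-128 mutant library. It was 4.12% (154 of 3735 cells, exact interval 3.51 to 4.81) there, 7.63% (232 of 3039, 6.71 to 8.64) in the csnk1a1 g3UTR library, 8.42% (369 of 4381, 7.62 to 9.28) in the jag1b g3UTR library and 7.01% (317 of 4519, 6.29 to 7.80) in WT. Set against WT, the miR-128 mutant share was 0.588 times as large (0.482 to 0.715). The csnk1a1 g3UTR share was 1.09 times (0.915 to 1.29) and the jag1b g3UTR share 1.2 times (1.03 to 1.4) as large. Libraries differed in depth, and a shallower cell reaches 3 UMIs less often, so each cell was also thinned to 2000 UMIs. The venous and lymphatic class was set before thinning, so only the count of the cycle genes was brought to 1 depth. The shares then were 1.66% in the miR-128 mutant, 3.43% in the csnk1a1 g3UTR library, 4.47% in jag1b g3UTR and 2.62% in WT, after leaving out 121, 210, 689 and 163 shallower cells. Thinned, the miR-128 mutant share was 0.634 times (0.456 to 0.875), the csnk1a1 g3UTR share 1.31 times (0.989 to 1.73) and the jag1b g3UTR share 1.71 times (1.34 to 2.19) that of WT. With the whole rule on thinned counts, the miR-128 mutant share was still below that of WT but closer to it. The shares of both g3UTR libraries were then above that of WT. No interval is given for the whole rule, so its differences are not shown to lie past counting error. As deposited and with the cycle genes thinned, the miR-128 mutant library was thus below WT and the jag1b g3UTR library above it, past counting error. The interval for csnk1a1 g3UTR held equality in both. Cells with 10 or more UMIs of other-class marker genes, described below, made up 16.3% of the cycling cells in jag1b g3UTR and 5.36% in WT. Among non-cycling cells they made up 4.44% and 1.86%. The jag1b g3UTR excess counts these cells and is not shown to hold past counting error without them. The csnk1a1 g3UTR share was 0.906 (0.766 to 1.07) of that in jag1b g3UTR as deposited and 0.767 (0.591 to 0.992) thinned. Leaving out cells with 3 or more UMIs of another class's marker list kept 508, 423, 1235 and 606 cells in the miR-128 mutant, csnk1a1 g3UTR, jag1b g3UTR and WT libraries. Those lists include genes found in 10% or more of WT non-cycling cells. The filter thus took out most venous and lymphatic EC, and not only cells with transcripts of another class. The miR-128 mutant share was then 0.848 times, the csnk1a1 g3UTR share 0.7004 times and the jag1b g3UTR share 0.752 times that of WT. The jag1b g3UTR ratio thus turned direction, and csnk1a1 g3UTR, near equality before, lay below WT. These ratios rest on far fewer cells and have no interval here, so they are not shown to lie past counting error. How much libraries of 1 genotype differ in this share is not known from these data.

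The miR-128 mutant library was lowest in several other classes too. Of all cdh5-positive cells, 10.5% were cycling in the miR-128 mutant, 14.9% in the csnk1a1 g3UTR library, 13.5% in jag1b g3UTR and 14.0% in WT. Thinned, these shares were 4%, 6.28%, 7.52% and 5.23%. Cells with 3 or more UMIs of the tip cell genes esm1, apln and hlx1 were cycling more often than the venous and lymphatic EC in every library, at 17.1%, 20.8%, 18.8% and 20.9% as deposited. Arterial EC were cycling at 4.81%, 14.8%, 10% and 11.3%. The miR-128 mutant library was not the lowest for EC with neither marker set, at 9%, 9.25%, 8.66% and 8.91%, nor for EC with both, at 19.1%, 12.4%, 20.8% and 16.3%. The venous and lymphatic EC made up 17.8%, 21.2%, 28.6% and 20.9% of all cycling cdh5-positive cells in the miR-128 mutant, csnk1a1 g3UTR, jag1b g3UTR and WT libraries. Cells with all 5 venous and lymphatic markers were cycling less often than cells with 4 of them in every library: 2.79% against 7.57% in the miR-128 mutant, 5.73% against 9.75% in csnk1a1 g3UTR, 7.21% against 9.51% in jag1b g3UTR and 6.04% against 9.23% in WT. Thinned, the shares with all 5 markers were 0.856%, 2.41%, 3.22% and 2%, against 3.15%, 4.97%, 5.74% and 3.74% with 4. With 3 markers the shares were 6.04%, 12.1%, 9.69% and 10%, lower than with 4 in the miR-128 mutant and higher in the others. These marker counts are part of the rule, so the shares are a description.

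Genes of mitosis that the rule did not use were far higher in the summed counts of the cycling cells than in those of the non-cycling cells. To describe genes, UMIs were summed over the cells of a class in each library, and a gene with at least 50 UMIs over both classes in every library was called where its CPM differed by over 1.5-fold in the same direction in 4 of 4 libraries. Of 11135 genes tested in cycling against non-cycling venous and lymphatic EC, 703 were called higher, or 6.31%, and 330 called lower, or 2.96%. The split rests on genes that move with these, so these counts describe the split and test nothing. Counts for a gene list are given over its members with enough UMIs. Of the 62 G2 and mitosis genes listed, 58 had enough UMIs, and all 58 were called higher, with a median of 34.0-fold, where the median of all genes was 0.976-fold. Mki67, a coat protein of mitotic chromosomes, was at 430, 531, 684 and 413 CPM in cycling cells of the miR-128 mutant, csnk1a1 g3UTR, jag1b g3UTR and WT libraries, against 5.74, 14.0, 25.4 and 7.19 CPM in non-cycling cells. Cdk1, the kinase that starts mitosis, was at 287, 197, 203 and 261 CPM, against 1.66, 4.17, 4.88 and 3.14 CPM. Ccnb1, its cyclin B partner, was at 124, 105, 120 and 114 CPM, against 0.829, 1.51, 2.83 and 0.743 CPM. The ranges of cycling and non-cycling libraries were far apart for each of these genes. Plk1, a kinase of the spindle and of cytokinesis, had a median of 38.2-fold. The smallest difference of the list was that of fzr1a, an activator of the anaphase-promoting complex that works from late mitosis into G1, at 1.80-fold.

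Outside the lists, the genes with the highest median fold were of the same kind. They were si:ch211-69g19.2, parpbp, kmt5ab, kpna2, iqgap3, cep55l, depdc1a, melk, zgc:86764 and prr11, between 131-fold and 49.8-fold. Kpna2, an importin that carries proteins into the nucleus, was at 379, 208, 301 and 328 CPM in cycling cells of the miR-128 mutant, csnk1a1 g3UTR, jag1b g3UTR and WT libraries, against 2.61, 4.72, 7.37 and 3.62 CPM in non-cycling cells. Cep55l belongs to the machinery that cuts daughter cells apart, and kmt5ab encodes a histone methyltransferase. The 10 lowest, with few UMIs in cycling cells, were myl13, myl10, grin3ba, si:dkey-264d12.5, XLOC_014378, ikbke, ern2, smyhc1, neb and tnnc1b. Of these, si:dkey-264d12.5, ern2, neb and tnnc1b passed 1.5-fold in only 3 libraries and were not called. Cycling cells had no UMI of ern2 and tnnc1b in the miR-128 mutant and of XLOC_014378 in WT, so those values are bounds. Some of the 10 encode muscle proteins, yet of 7 genes on the muscle list only actc1b was called lower, and its direction turned in cells with no tail hox UMI. Myl13, a myosin light chain, had 4, 9, 12 and 4 UMIs in cycling cells, against 572, 4212, 2767 and 281 in non-cycling cells.

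**Figure D2:**
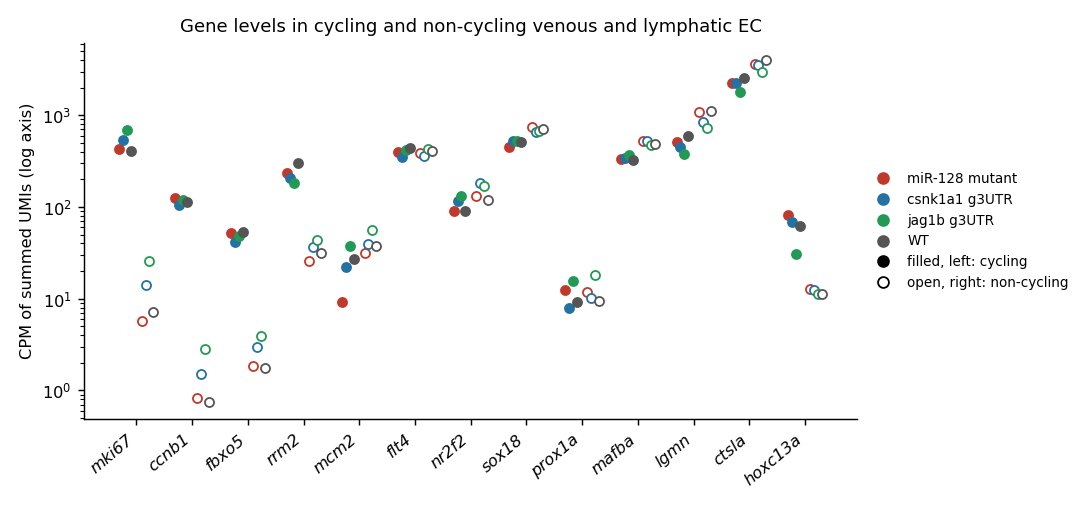
Levels (y axis, CPM on a log axis) of 13 genes that the rule did not use (x axis), 1 point per library, with cycling cells as filled points and non-cycling cells as open points to their right. Spindle and replication genes such as mki67 (46.7-fold) and rrm2 (7.24-fold) are far higher in cycling cells, flt4 lies in the same range in both classes, and lgmn is lower in cycling cells.

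Replication genes were divided. Of 42 S phase genes tested, 27 were called higher, with a list median of 2.56-fold. Rrm2, the subunit of ribonucleotide reductase that limits DNA precursors, was at 233, 209, 182 and 302 CPM in cycling cells of the miR-128 mutant, csnk1a1 g3UTR, jag1b g3UTR and WT libraries, against 25.5, 36.3, 43.6 and 31.4 CPM in non-cycling cells. Pcna, the sliding clamp of DNA polymerase, was at 364, 354, 315 and 483 CPM, against 81.1, 111, 121 and 108 CPM. Subunits of the Mcm2-7 helicase, which is loaded before replication, did not follow. Mcm2 was at 9.29, 22, 37.8 and 26.7 CPM in cycling cells, against 31.3, 39.2, 56.4 and 37.4 CPM in non-cycling cells. Mcm5 had a median of 0.497-fold, mcm6 of 0.695-fold, mcm4 of 0.727-fold, mcm3 of 0.768-fold and mcm7 of 1.51-fold. Mcm10, which acts after loading, was called higher at 2.67-fold. None of the 6 helicase subunits was called in either direction, while the clamp and rrm2 were called higher.

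**Figure D3:**
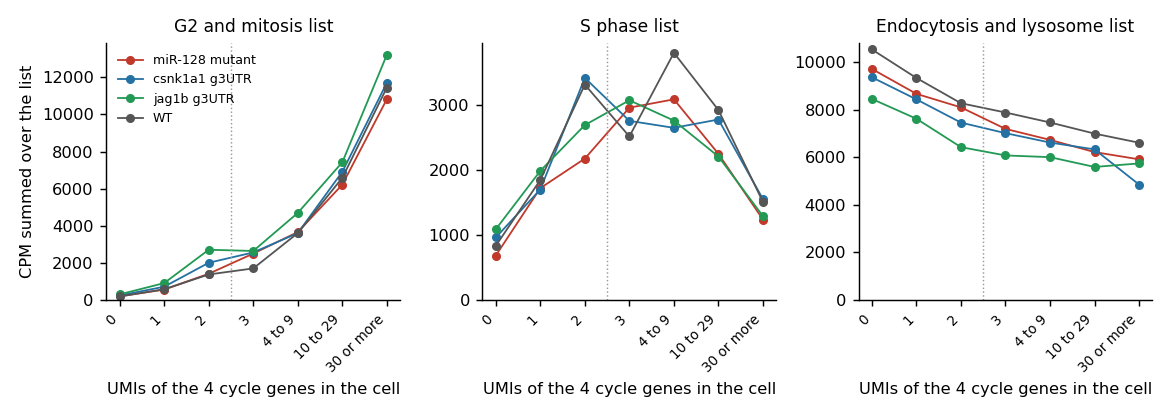
Summed CPM of the G2 and mitosis list, the S phase list and the lysosome list (y axes) by UMIs of the 4 cycle genes per cell (x axis, bins from 0 to 30 or more), 1 line per library, with the threshold of 3 UMIs dotted. The G2 and mitosis sum is highest in the bin of 30 or more, while the S phase sum peaks in a middle bin, at 3795 CPM in WT, and is 1502 CPM in WT cells with 30 or more.

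Within the class, cells differed in the cycle lists when binned by UMIs of the 4 rule genes. These genes chose the cells, and deeper cells tend to have more of their UMIs, so the bins are a description. Cells with more UMIs of the 4 rule genes had more of the G2 and mitosis list, which in WT summed to 1687 CPM at 3 UMIs, 3595 at 4 to 9, 6581 at 10 to 29 and 11455 at 30 or more. The S phase list went the other way at the top, with 2509, 3795, 2915 and 1502 CPM in the same WT bins. It peaked at 4 to 9 UMIs in the miR-128 mutant (3080 CPM), at 2 UMIs in the csnk1a1 g3UTR library (3410 CPM), at 3 UMIs in jag1b g3UTR (3066 CPM) and at 4 to 9 UMIs in WT. In the top bin it was 1230 CPM in the miR-128 mutant, 1545 in the csnk1a1 g3UTR library, 1283 in jag1b g3UTR and 1502 in WT, below its peak in each library. The top bin held 28, 26, 37 and 41 cells, which had a median of 15787, 12897.5, 10444 and 18909 UMIs. Cells just under the threshold also carried cycle transcripts, since WT cells with 2 UMIs had 1359 CPM of the G2 and mitosis list and 3307 CPM of the S phase list, against 172 and 827 CPM at 0 UMIs. The non-cycling class therefore held cells with S phase transcripts.

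Regulators of the cycle were led by those that act late. Of 20 tested, 9 were called higher and none lower. Fbxo5, which holds the anaphase-promoting complex in check until mitosis, was at 52.4, 41.8, 47.7 and 53.5 CPM in cycling cells of the miR-128 mutant, csnk1a1 g3UTR, jag1b g3UTR and WT libraries, against 1.84, 2.97, 3.9 and 1.77 CPM in non-cycling cells. The others were e2f8 (7.18-fold), mybl2b (6.25-fold), lin9, lin54, tfdp1b, wee1, e2f4 and cdk2 (1.99-fold), of which mybl2b, lin9 and lin54 encode parts of the complexes that turn on mitotic genes. Ccnd2a, a D-type cyclin of early G1, was at 78.1, 80.0, 104 and 110 CPM in cycling cells, against 147, 139, 171 and 150 CPM, lower in each library and not called, since WT stayed within 1.5-fold. Ccnd1 was at 1.21-fold and not called. None of 12 cell cycle brakes was called, and their median was 0.97-fold. Cdkn1a, which halts the cycle after DNA damage, had a median of 1.66-fold without passing 1.5-fold in every library.

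Chromatin genes of dividing cells formed the next largest group, with 18 of 22 called higher at a median of 2.38-fold. Stmn1a, which destabilizes microtubules, was at 306, 254, 196 and 293 CPM in cycling cells of the miR-128 mutant, csnk1a1 g3UTR, jag1b g3UTR and WT libraries, against 19.8, 30.5, 33.5 and 22.8 CPM in non-cycling cells. Hmgb2a, a DNA-bending chromatin protein, was at 3915, 3716, 3724 and 4001 CPM, against 531, 726, 848 and 663 CPM. Tubb2b, a beta-tubulin, was 4.50-fold higher in the median and dnmt1, which copies DNA methylation to the new strand, 2.04-fold. Growth genes were less marked, with 2 of 18 called.

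Venous identity genes outside the rule were at similar or somewhat lower levels in cycling cells. Of 13 genes of venous fate and the Vegfc pathway, none was called higher and 1 was called lower, with a median of 0.89-fold. Flt4 was at 398, 353, 417 and 443 CPM in cycling cells of the miR-128 mutant, csnk1a1 g3UTR, jag1b g3UTR and WT libraries, against 384, 364, 432 and 403 CPM in non-cycling cells. The ranges overlapped and the median fold was 1. Nr2f2, the nuclear receptor that sets venous fate, was at 89.6, 115, 132 and 90.4 CPM, against 132, 184, 169 and 120 CPM, a median of 0.714-fold and lower in each library. Sox18, a partner of venous and lymphatic specification, was at 452, 526, 522 and 513 CPM, against 741, 657, 672 and 716 CPM, with no overlap between the classes. The called gene was nrp2b, a co-receptor for Vegfc, at 43.7, 75.2, 90.2 and 52.2 CPM, against 86.8, 115, 143 and 80.6 CPM. Vegfc itself was at 14.2, 12.7, 9.46 and 17.1 CPM in cycling cells, against 8.35, 4.72, 7.32 and 6.57 CPM in non-cycling cells. It was higher in cycling cells of every library and was not called, since the jag1b g3UTR library stayed under 1.5-fold. In cells with no tail hox UMI, a subset chosen after the data were seen, it was lower in the miR-128 mutant (0.62-fold). The cycling cells there had only 3 UMIs of it. Vegfc stayed higher in the other libraries of that subset.

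Lymphatic genes showed no call in either direction among the 8 tested, and their median was 0.89-fold. Prox1a had a median of 0.914-fold. Prox1b, its paralog, was at 21.3, 29, 30.2 and 20.6 CPM in cycling cells of the miR-128 mutant, csnk1a1 g3UTR, jag1b g3UTR and WT libraries, against 29.9, 45.2, 51.4 and 33.7 CPM in non-cycling cells. Mafba, a transcription factor of lymphatic development, was at 332, 345, 365 and 327 CPM, against 525, 520, 472 and 484 CPM. Mafba was thus lower in cycling cells of each library without reaching the fold in all 4. Cldn11b, a claudin, had a median of 1.48-fold. Pan-endothelial genes likewise had no call among 15, with a median of 0.92-fold.

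The list for endocytosis and the lysosome of scavenger endothelium was the largest group on the low side. Of 22 genes of that list, 5 were called lower and 1 higher, with a median of 0.78-fold. These calls did not hold in narrower subsets chosen after the data were seen: in cells with all 5 venous markers none of 21 was called, and in cells with no tail hox UMI 1 of 21 was called lower, while the medians were 0.81 and 0.82. Lgmn, ctsla and ctsba were then lower in each library without passing 1.5-fold in all 4, at medians of 0.61, 0.68 and 0.71 with all 5 markers. Lgmn, the lysosomal protease legumain, was at 512, 455, 382 and 600 CPM in cycling cells of the miR-128 mutant, csnk1a1 g3UTR, jag1b g3UTR and WT libraries, against 1084, 843, 724 and 1120 CPM in non-cycling cells. Ctsla, a cathepsin, was at 2251, 2222, 1788 and 2534 CPM, against 3592, 3564, 2950 and 4027 CPM. The other genes called lower were ctsba, at 0.626-fold, ctsz, at 0.562-fold, and lipea, a lipase not shown here to be lysosomal, at 0.396-fold. The gene called higher, lrp1aa, a low-density lipoprotein receptor relative, had few UMIs, at 6.01, 7.03, 5.82 and 5.60 CPM against 1.60, 1.86, 3.32 and 1.39 CPM. Summed over the list, cycling cells had 6440, 6301, 5842 and 7202 CPM, against 9644, 9245, 8325 and 10399 CPM. The sum in WT was 10537 CPM at 0 UMIs of the cycle genes and 6608 CPM at 30 or more. CPM are shares of a cell's total, and the cycling cells had more UMIs in total, so a lower share is not shown to be fewer transcripts per cell. The rule markers were lower too, from 0.57-fold for mrc1a to 0.72-fold for dab2, and their part in the lysosomal values was not tested.

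Some genes linked to arteries and to Notch were higher in cycling cells. Of 11 arterial genes outside the rule, 3 were called higher and 1 lower. The higher calls did not all hold in narrower subsets, which were chosen after the data were seen and hold fewer cells. With no tail hox UMI, aqp8a.1 (1.78-fold) and notch3 (1.57-fold) were not called and hey2 had too few UMIs. Aqp8a.1 and notch3 were still higher in cycling cells of each library. With all 5 venous markers, aqp8a.1 alone of the 3 was called. The part of cells with tail hox transcripts in the calls was not tested. Aqp8a.1, a water channel, was at 1242, 782, 1056 and 1309 CPM in cycling cells of the miR-128 mutant, csnk1a1 g3UTR, jag1b g3UTR and WT libraries, against 440, 390, 638 and 441 CPM in non-cycling cells. Hey2, a Notch-induced repressor, was at 32.8, 29.9, 41.1 and 25.5 CPM, against 11.7, 14.0, 21.6 and 10.3 CPM, and notch3 had a median of 2.25-fold. The exception was cxcl12b, a chemokine, at 53.0, 75.6, 76.4 and 115 CPM against 171, 154, 145 and 204 CPM. With cells that had 3 or more UMIs of another class's marker list left out, the direction turned for aqp8a.1 (median log2 ratio of -0.23) and notch3 (-0.054). That filter took out most venous and lymphatic EC, so the turn is not shown to come from cells of another class. Among signalling genes, the largest medians were those of the Wnt targets axin2 (2.32-fold) and mycb (2.39-fold). Axin2 had few UMIs in cycling cells, at 6.55, 3.52, 11.6 and 5.60 CPM against 2.58, 2.31, 3.76 and 2.64 CPM. Axin2 and mycb were the only calls among 9 Wnt target genes, where 6.31% of all genes were called higher. None of 13 Bmp response genes was called. Id1, a direct Bmp target, was at 693, 376, 347 and 526 CPM in cycling cells, against 464, 223, 194 and 339 CPM in non-cycling cells, higher in each library.

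**Figure D4:**
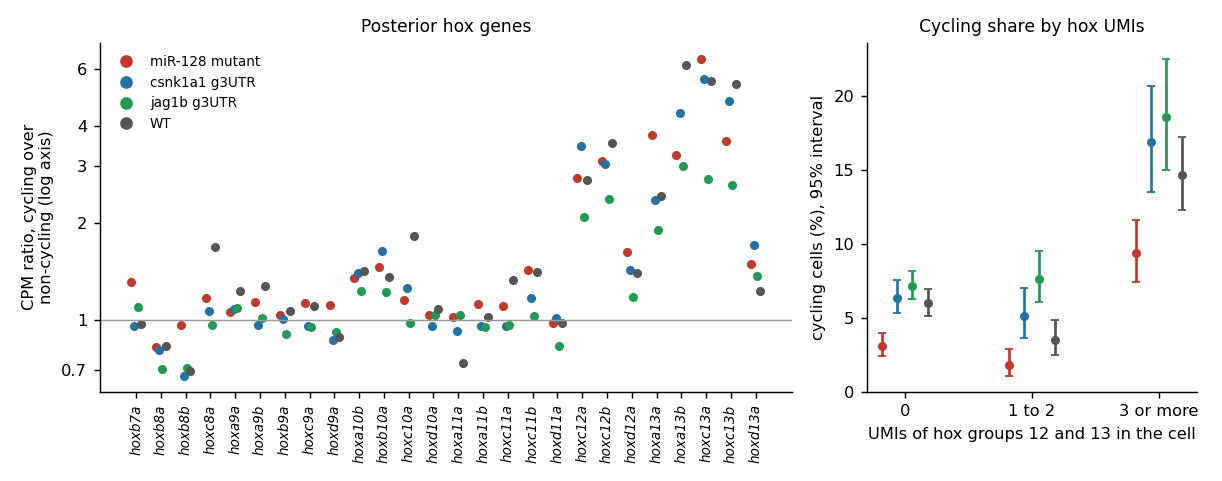
Left, ratio of CPM in cycling over non-cycling venous and lymphatic EC (y axis, log axis) for posterior hox genes of groups 7 to 13 (x axis), 1 point per library. Right, share of these EC called cycling (y axis, percent, exact 95% intervals) by UMIs per cell of the 8 hox genes of groups 12 and 13 (x axis), where the bin of 3 or more UMIs is above the bin of 0 UMIs by 3, 2.65, 2.58 and 2.45 times in the miR-128 mutant, csnk1a1 g3UTR, jag1b g3UTR and WT libraries.

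The most posterior hox genes were higher in cycling cells, and this was seen in all 4 libraries. Hox genes mark position along the body, and groups 12 and 13 mark the tail. Of the 8 genes of these groups, 6 were called higher, with a median of 2.90-fold, where none of 18 genes of groups 7 to 11 was called and their median was 1.04-fold. Hoxc13a was at 81.9, 69.0, 30.6 and 61.3 CPM in cycling cells of the miR-128 mutant, csnk1a1 g3UTR, jag1b g3UTR and WT libraries, against 12.7, 12.4, 11.2 and 11.1 CPM in non-cycling cells. Hoxc12b was at 105, 74.7, 58.2 and 68.2 CPM, against 33.8, 24.5, 24.4 and 19.2 CPM. The others called were hoxc13b (4.14-fold), hoxa13b (3.77-fold), hoxc12a (2.74-fold) and hoxa13a (2.39-fold), and hoxd12a (1.42-fold) and hoxd13a (1.43-fold) were not. Hoxb9a, of a trunk group, was at 194, 284, 230 and 200 CPM in cycling cells, against 187, 281, 254 and 187 CPM. The difference thus lay in the tail groups of the list and not in those of the trunk.

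Seen by cell, venous and lymphatic EC with tail hox transcripts were more often cycling. Of cells with 3 or more UMIs of the 8 genes, 9.39% (exact interval 7.45 to 11.6) were cycling in the miR-128 mutant, 16.9% in the csnk1a1 g3UTR library, 18.6% in jag1b g3UTR and 14.7% in WT. Of cells with none, 3.13%, 6.38%, 7.19% and 5.99% were. The ratio was 3 (2.11 to 4.26), 2.65 (1.96 to 3.56), 2.58 (1.98 to 3.35) and 2.45 (1.92 to 3.12). Cells of the upper bin were deeper, with medians of 10493, 8664.5, 6802 and 12085 UMIs, against 7886, 6320.5, 4641 and 8864. With each cell thinned to 2000 UMIs, the ratios were 4.29 (1.48 to 10.3), 3.99 (1.75 to 8.03), 1.71 (0.617 to 3.84) and 4.15 (1.73 to 8.62), so that the difference remained past counting error in 3 libraries and not in jag1b g3UTR. In the bin of 1 to 2 UMIs the share was 1.82%, 5.15%, 7.64% and 3.53%, below that at 0 UMIs in all libraries except jag1b g3UTR. Thinned, that bin lay between the others in each library, at 2.63%, 3.88%, 6.18% and 4.39%, against 1.26%, 3.05%, 4.02% and 2.09% at 0 UMIs and 5.41%, 12.2%, 6.90% and 8.70% at 3 or more. The thinned upper bins held 6, 9, 6 and 8 cycling cells. Cells with 3 or more UMIs made up 48.1%, 32.3%, 22% and 38.5% of the cycling cells (74, 75, 81 and 122 cells), against 19.9%, 13.1%, 8.85% and 16.9% of the non-cycling cells.

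Cycling cells with and without tail hox transcripts differed in other genes too. They differed in the cycle itself, with the G2 and mitosis list 1.57, 1.28, 1.14 and 1.4 times and the S phase list 1.41, 1.42, 1.45 and 1.38 times as high in cycling cells with 3 or more hox UMIs as in those with none, in the miR-128 mutant, csnk1a1 g3UTR, jag1b g3UTR and WT libraries. The part of the cycle lists in the following values was not tested. Plvapb, a protein of the diaphragms of EC pores, was at 283, 244, 217 and 379 CPM in cycling cells with 3 or more hox UMIs in the miR-128 mutant, csnk1a1 g3UTR, jag1b g3UTR and WT libraries, against 1327, 1252, 1031 and 1644 CPM in cycling cells with none. Lgmn stood at 0.237, 0.289, 0.413 and 0.342 of its level in cycling cells without them, and lyve1b, the hyaluronan receptor, at 0.204, 0.198, 0.213 and 0.380. Id1 was at 915, 577, 553 and 714 CPM, against 275, 205, 196 and 223 CPM. Aqp8a.1 was 4.95, 4.47, 4.73 and 3.45 times as high, and hey2 10.2, 3.86, 4.54 and 6.94 times. The same directions stood among non-cycling cells, where plvapb was at 0.444, 0.494, 0.395 and 0.523, lgmn at 0.490, 0.529, 0.514 and 0.526, and id1 at 2.20, 1.68, 2.38 and 2.47 times the level of non-cycling cells without hox UMIs. Flt4 differed less, at 1.24, 1.51, 1.36 and 1.27 times among cycling cells. Stab2 was at 0.676, 0.794, 0.877 and 0.759 times, and is a gene of the rule.

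This bore on the contrast of cycling with non-cycling cells. With cells that had no tail hox UMI alone, a subset chosen after the data were seen, the median fold of lgmn was 0.72 in place of 0.53, that of plvapb 0.91 in place of 0.65, that of id1 1 in place of 1.62 and that of aqp8a.1 1.78 in place of 2.38. Ctsla (0.68 in place of 0.63), mafba (0.68 and 0.67) and sox18 (0.77 and 0.75) moved little. Col5a1, a fibrillar collagen of mesenchyme, was also higher in cycling cells, at 157, 165, 116 and 92.6 CPM in the miR-128 mutant, csnk1a1 g3UTR, jag1b g3UTR and WT libraries, against 35.1, 29.3, 50.8 and 25.6 CPM in non-cycling cells, and was 3.49, 1.27, 3.41 and 11.6 times as high in cycling cells with 3 or more hox UMIs as in those with none. Col1a2 and pdgfra followed it in WT and not in the other libraries. The list of mesenchyme markers, which includes col5a1, followed it in all libraries except csnk1a1 g3UTR. Between the same cells, col1a2 stood at 0.644, 0.489, 0.805 and 2.45 times and pdgfra, with few UMIs, at 0.589, 0.228, 0.873 and 5.92 times, and the list of mesenchyme markers at 1.45, 0.833, 1.98 and 3.53 times. Over the whole list, 2 of 5 markers tested, col5a1 and pdgfra, were called higher in cycling cells. The part of mesenchymal transcripts in the hox values was not tested.

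**Figure D5:**
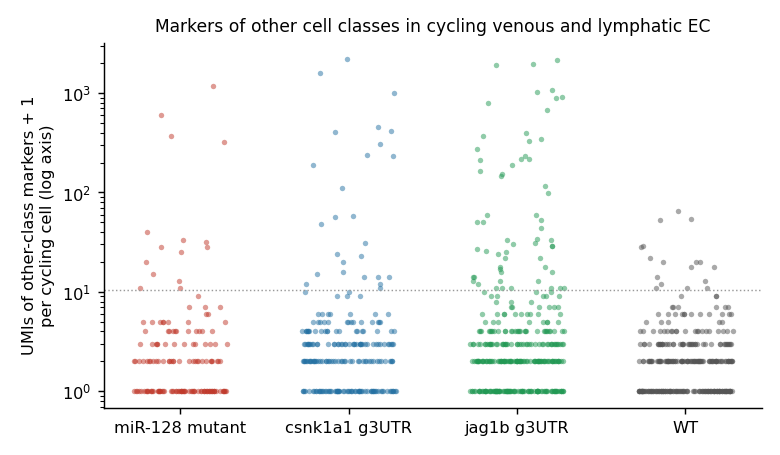
UMIs per cell of 49 marker genes of other cell classes (y axis, UMIs plus 1 on a log axis, dotted line at the limit of 10) in cycling venous and lymphatic EC of the 4 libraries (x axis), 1 point per cell. Most cells have few such UMIs, and single cells reach 1174 in the miR-128 mutant library, 2184 in the csnk1a1 g3UTR library and 2133 in the jag1b g3UTR library, against 64 in WT.

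Some of the cycling cells carried transcripts of marker genes of other cell classes, which bears on all comparisons between libraries. The 49 marker genes of blood, muscle, neural, mesenchymal, epidermal, pigment, notochord and pronephric cells that each appeared in under 10% of WT non-cycling cells gave 10 or more UMIs in 15, 26, 60 and 17 cycling cells of the miR-128 mutant, csnk1a1 g3UTR, jag1b g3UTR and WT libraries, or 9.74%, 11.2%, 16.3% and 5.36%. In non-cycling cells the shares were 2.12%, 2.24%, 4.44% and 1.86%. The 49 genes include col5a1 and pdgfra, which were called higher in cycling cells. Col5a1 was also higher in cycling cells with tail hox transcripts, so the limit of 10 UMIs may take out some of those. The part of these genes in the shares was not tested. The highest count in 1 cycling cell was 1174, 2184, 2133 and 64 UMIs, and the 5 highest cells held 87.3%, 72.3%, 50.2% and 28.7% of all these UMIs. Whether such cells were doublets was not tested. Lyz, a lysozyme of neutrophils and macrophages, illustrates it: of 3068 UMIs in cycling cells of the miR-128 mutant, 99.3% came from 1 cell, and the ratio to WT was 116 with that cell and 0.881 without the cells that had 10 or more such UMIs.

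Against cycling arterial EC, the cycling venous and lymphatic EC were higher in lysosomal and venous genes and lower in arterial ones. The arterial class, defined by the mirrored rule, held only 5, 9, 12 and 11 cells in the miR-128 mutant, csnk1a1 g3UTR, jag1b g3UTR and WT libraries, so that its gene counts are often of single digits. Of 3733 genes tested, 146 (3.91%) were called higher in the venous and lymphatic cells and 73 (1.96%) lower. None of 52 G2 and mitosis genes was called in either direction, with a median of 1.07-fold, and 2 of 20 S phase genes were called higher, rrm2 and nasp. The S phase list summed to 2393, 2540, 2403 and 2937 CPM, against 610, 950, 1702 and 1128 CPM in arterial cells. Both classes were chosen by the same 4 mitotic genes, and calls in 4 of 4 libraries are hard to reach with so few cells, so the lack of mitotic calls is a description and shows no likeness.

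The venous side of that comparison was led by endocytic and lysosomal genes. Of 18 tested, 9 were called higher, with a list median of 2.02-fold where that of all genes was 1.04-fold. Lgmn was at 512, 455, 382 and 600 CPM in cycling venous and lymphatic cells of the miR-128 mutant, csnk1a1 g3UTR, jag1b g3UTR and WT libraries, against 177, 41.3, 33.7 and 65.1 CPM in cycling arterial cells, where it had 9, 3, 2 and 6 UMIs. The others were ctsla, ctsba, ctsd, hexb, lamp1a, lamp2, ap2m1a and cltca. Flt4 was 4.90-fold and mafba 4.19-fold higher in the median. The higher genes passed the minimum of 50 UMIs almost wholly through the venous and lymphatic cells, so their count and order are a description. Outside the lists the highest was zfp36l1a, which encodes a protein that promotes mRNA decay, at 485, 492, 447 and 466 CPM against 19.7, 27.5, 16.8 and 43.4 CPM, with only 1, 2, 1 and 4 arterial UMIs. It was followed by dnase1l4.1 (14.4-fold), a nuclease relative, and by ap1s3b, glula, npl and others at 13.5-fold to 6.60-fold, of which several had no UMI in 1 or more arterial libraries, so that their folds are set against the floor of 3 counts. On the low side stood cldn5a, a tight junction claudin, at 64.5, 39.6, 50.2 and 43.0 CPM against 1020, 234, 354 and 640 CPM, igfbp7, emilin2a and flt1, the decoy Vegf receptor, at 41.0, 26.4, 40 and 52.2 CPM against 177, 207, 202 and 195 CPM. Notch1b, an arterial Notch receptor, was at 44.2, 46.6, 77.1 and 47.3 CPM, against 256, 275, 320 and 141 CPM.

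Between libraries, genes within the cycling cells were set side by side with 1 library against 1. In the miR-128 mutant against WT, 446 of 7434 genes with at least 50 UMIs over both were past 1.5-fold higher, or 6%, and 387 lower, or 5.21%. The exact interval of the ratio lay past 1.5-fold for 91 and 39 of them, and for 31 and 33 once cells with 10 or more other-class UMIs were left out. The 6 highest genes by ratio included nppc, ctss2.1 and krt97, each with all its UMIs in 1 cell. Among the lowest were BX548028.1, at 7.65 CPM against 132 CPM (ratio 0.0579, 0.0314 to 0.0980), si:ch211-114n24.6, at 7.10 CPM against 121 CPM, and CABZ01079276.1, at 33.3 CPM against 330 CPM. The last 2 were as low in non-cycling cells, at ratios of 0.0788 and 0.0749, so these differences were not of the cycling cells alone. Without the other-class cells, the 6 highest were zgc:113984, with a ratio of 16.5 (12.9 to 21.4), hspb9 (10.0), si:dkeyp-110a12.4 (5.71), adra1ba (4.68), tuba1a (4.61) and pgs1 (4.49). With all cells, zgc:113984 was at 311 CPM against 19.6 CPM, and its ratio in non-cycling cells was 8.15. Others of these rested largely on 1 cell. In the miR-128 mutant, 1 cycling cell held 84.7% of the hspb9, 77.8% of the si:dkeyp-110a12.4 and 52.9% of the tuba1a UMIs. With all cells the hspb9 ratio was 1.89, and 1 WT cell held 79.1% of its WT UMIs. Tuba1a went the other way in non-cycling cells, at a ratio of 0.328.

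The S phase list summed to 2393 CPM in cycling cells of the miR-128 mutant, against 2937 CPM in WT, a ratio of 0.814 (0.786 to 0.843), and 0.782 in non-cycling cells. Its ratio in cycling cells was much the same in the other libraries, at 0.865 in csnk1a1 g3UTR and 0.818 in jag1b g3UTR, where non-cycling cells stood at 1.12 and 1.26. Of 37 S phase genes, 6 were past 1.5-fold lower and none higher, of which mcm2, at 9.29 CPM against 26.7 CPM, had an interval past 1.5-fold. The G2 and mitosis list had a ratio of 1.02. Bmp response genes summed to 1.25 (1.18 to 1.32) times WT in cycling and 1.26 times in non-cycling cells, against 0.881 and 0.792 times in cycling cells of csnk1a1 g3UTR and jag1b g3UTR, with id1 at 693 CPM against 526 CPM and id3 at 55.2 CPM against 34.6 CPM. The tail hox genes stood at 1.31 times in both classes. Wnt targets stood at 1.17 times, with 1 of 6 genes, mycb, past 1.5-fold, and Notch targets at 1.16 times with none of 6 past it. Cxcl12b was at 53.0 CPM against 115 CPM in WT, and 0.840 of WT in non-cycling cells. These list ratios are values of 1 library each, and none was tested.

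In the csnk1a1 g3UTR library 871 of 7799 genes, or 11.2%, were past 1.5-fold above WT in cycling cells and 389, or 4.99%, below it. The interval was past 1.5-fold for 196 and 46 genes, and for 121 and 42 without the other-class cells. The 6 highest by ratio were cst14b.2 (261 times WT), the haemoglobin genes hbbe1.1 (253 times), hbae3, hbae1.1 and hbbe3, and epyc, whose UMIs all came from 1 cell. A single cell held 44.5% of the hbbe1.1, 48.3% of the hbae3 and 41.3% of the hbbe3 UMIs. Without the other-class cells the ratios were 3.99, 4.43 and 4.93, close to the 5.26, 4.96 and 4.12 of non-cycling cells. The list of 10 erythroid markers, all past the fold, stood at 123 times WT in cycling cells, against 4.58 times in non-cycling cells, and its value in cycling cells thus rests on a few cells. At the low end were CABZ01079276.1, at 44.4 CPM against 330 CPM, socs3a, a feedback inhibitor of cytokine signals, at 5.71 CPM against 33.6 CPM, and gchfr, a regulator of biopterin synthesis, at 16.3 CPM against 86.0 CPM (0.189, 0.131 to 0.266, and 0.242 in non-cycling cells). Immediate early and stress genes were mostly lower, with 8 of 16 past 1.5-fold below WT and 3 above, among them fosab, at 49.2 CPM against 104 CPM, and hspa5, a chaperone of the endoplasmic reticulum, at 133 CPM against 317 CPM. Of 6 Wnt target genes none was past the fold, and the list stood at 1.04 times WT. Her9, a Notch-linked repressor, was at 14.5 CPM against 32.3 CPM.

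In the jag1b g3UTR library 2013 of 8251 genes, or 24.4%, were past 1.5-fold above WT and 677, or 8.21%, below it. The median of all genes lay 0.16 above WT on the log2 scale, and with median-of-ratios size factors the counts were 1442 and 1242, so the excess of higher genes rests in part on the scaling. The interval was past 1.5-fold for 670 and 105 genes, and for 650 and 58 without the other-class cells. Of the 670, 624 were past 1.5-fold above WT in non-cycling cells too. Haemoglobin genes again led, with hbbe1.1 at 612 times WT and at 7.35 times without the other-class cells. Of 61 G2 and mitosis genes, 13 were past 1.5-fold above WT and 3 below, with a median of 1.09-fold, a share no larger than that of all genes. Mki67 was at 684 CPM against 413 CPM. S phase genes were divided, with mcm3 at 20.7 CPM against 7.38 CPM and dut, which keeps uracil out of DNA, at 147 CPM against 387 CPM. Prox1a was at 15.6 CPM against 9.16 CPM (1.71, 1.07 to 2.74, and 1.95 in non-cycling cells), nrp2b at 90.2 CPM against 52.2 CPM, and hhex, a homeobox gene of vein and lymphatic development, at 120 CPM against 218 CPM. Of 7 Notch target genes hey1 and hey2 were past the fold above WT and her6 and hes6 below, and the list summed to 0.962 of WT. The tail hox genes stood at 0.744 of WT in cycling cells and at 1.07 in non-cycling cells, with hoxc13a at 30.6 CPM against 61.3 CPM.

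Several of the differences from WT were shared by both g3UTR libraries, which were processed with another version of Cell Ranger. Rn7sk, a small nuclear RNA that restrains transcription elongation, was at 198 CPM in csnk1a1 g3UTR and 469 CPM in jag1b g3UTR, against 20.9 CPM in WT cycling cells. Kdrl, the receptor whose promoter drives the reporter, was at 3941 and 5089 CPM, against 1330 CPM in WT and 1448 CPM in the miR-128 mutant, with ratios to WT of 2.84 and 3.39 in non-cycling cells. Between the g3UTR libraries, 357 of 7564 genes (4.72%) were past 1.5-fold higher in csnk1a1 g3UTR than in jag1b g3UTR and 1031 (13.6%) lower.

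The targeted genes did not stand out in these cells. Csnk1a1 was at 358 CPM in the miR-128 mutant, 327 CPM in the csnk1a1 g3UTR library, 339 CPM in jag1b g3UTR and 339 CPM in WT cycling cells, and over WT it stood at 1.06 (0.960 to 1.16) in the miR-128 mutant and 0.963 (0.879 to 1.05) in csnk1a1 g3UTR. Jag1b was at 7.65, 6.15, 6.55 and 7.13 CPM in the same libraries, too few transcripts to set the libraries apart. The host genes were low as well, with r3hdm1 at 13.7, 9.67, 12.4 and 8.4 CPM and arpp21 at 8.19, 8.35, 10.2 and 9.67 CPM. By quantitative PCR on RNA of pooled embryos, the study reported both transcripts raised in miR-128 mutants and each raised in its own g3UTR mutant. It had picked both genes from Wnt and Notch candidates in bulk RNA sequencing of sorted tail EC of miR-128 mutant and WT embryos. The counts here cover 1 class of sorted cells in 1 library per group, so the measures are not alike. These values therefore check no label.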

How the data were processed

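The deposited matrices hold UMI counts per gene and cell barcode for 4 droplet libraries (10x Genomics, 3′ chemistry), 1 per group, over 36351 genes, with no normalization. Per the labels and methods, the authors made the counts with Cell Ranger 5.0.0 against an annotation with corrected 3′UTRs (file headers give 5.0.0 for miR-128 mutant and WT and 6.0.1 for both g3UTR libraries), pooled embryos, and left out cells under 200 genes or over 35000 UMIs. The genome build is not given in the sources used here. The same limits were applied, they are the only guard against doublets, and no doublet caller was run. 42951 cells were kept. Class rules are stated with the results.

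Counts were summed over the cells of a class in each library and scaled to CPM. Genes were tested for size only: at least 50 UMIs, and past 1.5-fold (4 of 4 libraries for comparisons within libraries). A library at 0 was set to a floor of 3 counts. Shares have exact Clopper-Pearson intervals, and ratios exact conditional binomial intervals. Thinning drew 2000 UMIs per cell without replacement. Cells of a library are not replicates, so no p-value was computed. Named genes were members of 31 gene lists, and outside them the 10 highest and 10 lowest by median ratio (6 and 6 between libraries, among genes whose interval lay past 1.5-fold), in each case with the same direction in 4 of 4 libraries where 4 were compared. The members and lists were chosen with earlier results of these data known. Of 458 list genes, 451 were in the files. Python 3.11.15, numpy 2.4.6, scipy 1.17.1, pandas 2.3.3 and matplotlib 3.10.9 were used, and the scripts were checked on simulated data. Alternatives were median-of-ratios scaling, per-cell means, thinning, other UMI, gene and mitochondrial limits, and filters on other-class markers. Gene coordinates and sequences were not used here.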

Additional observations from a re-analysis of the deposited data

How the results depend on the processing

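No paired analysis of the groups was possible because each group held 1 library. Classes of cells were compared within each library. Shares depended on depth and on the threshold of the cycle genes. In the miR-128 mutant, csnk1a1 g3UTR, jag1b g3UTR and WT libraries the cycling share was 1.66, 3.43, 4.47 and 2.62% with thinned cells, 3.19, 5.63, 5.73 and 5.33% with at least 5 UMIs of the cycle genes, and 2.46, 3.78, 4.65 and 3.01% with the whole rule on thinned counts. Of all kept cells, 1.60, 2.5, 3.23 and 2.51% were cycling venous and lymphatic EC, and 0.661, 1.14, 1.71 and 0.971% thinned, or 1.24, 1.84, 2.20 and 1.91% with at least 5 UMIs. The ratio to WT, 1.09 for csnk1a1 g3UTR and 1.2 for jag1b g3UTR, was 1.31 and 1.71 thinned.

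Leaving out cells with 3 or more UMIs of another class's marker list kept 508, 423, 1235 and 606 cells. The lists include genes common in WT non-cycling cells, so this filter did not take out cells of another class alone. The cycling share was then 6.30, 5.20 and 5.59% in the mutant, csnk1a1 g3UTR and jag1b g3UTR libraries, the share of kept cells 1.93, 1.71 and 2.39%, and the ratio to WT 0.848, 0.7004 and, reversed, 0.752. So the order of the libraries does not hold in these few cells, and the cause was not tested. No interval is given for these ratios, which are not shown to lie past counting error. Under this filter 93 genes were higher and 44 lower in cycling cells, aqp8a.1 and notch3 turned to log2 values of -0.23 and -0.054, and the comparison with arterial cells gave no value, since a library had no cycling arterial cell left. Higher and lower genes against WT were 73 and 84 for the miR-128 mutant, 105 and 125 for the csnk1a1 g3UTR and 271 and 188 for the jag1b g3UTR library, and 71 and 175 for csnk1a1 g3UTR against jag1b g3UTR.

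With at least 10 UMIs per gene these counts were 1682 and 1468, 2500 and 1154, 4021 and 1350, and 1251 and 2507. With every cell thinned they were 193 and 202, 386 and 238, 1067 and 405, and 220 and 628. Median-of-ratios scaling gave 1242 lower genes in jag1b g3UTR. Against arterial cells 142 genes were lower with at least 10 UMIs, and in the WT library alone 1631 were higher and 932 lower. In WT alone 1909 genes were higher and 2115 lower in cycling cells. A limit of 25000 UMIs turned lyz in the miR-128 mutant to -0.19 and hbbe2 against arterial cells to -0.0071.

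Alternatives chosen after seeing the data were as follows. In cells with no tail hox UMI the shares were 3.13, 6.38, 7.19 and 5.99%, 376 genes were higher and 210 lower, and actc1b turned to 0.38 (log2). With all 5 venous markers 168 were lower. Without cells that had 10 or more other-class UMIs the jag1b g3UTR share was 7.46% in place of 8.42%, and its excess over WT is not shown to hold past counting error. Lyz in the miR-128 mutant turned to -0.18 (log2).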
